A study of Mus musculus with 3 samples.

Results

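The 49 genes described here carry glucose from uptake to its oxidation: glucose carriers, the enzymes of glycolysis, lactate dehydrogenase and the lactate carriers, pyruvate dehydrogenase with its kinases, the enzymes of the tricarboxylic acid (TCA) cycle, and a few enzymes that branch from them. They were taken by name and not by their measured values, though earlier results of these data were known when they were chosen. All 49 had at least 1 probe on the array, 81 probes in all, out of 23458 genes named by 33759 probes. The arrays read RNA of mouse blastocysts of the ICR strain that grew in KSOM medium for 96 h, by the labels from zygotes flushed out of superovulated, mated females. The study's text also describes zygotes fertilized in vitro for its work with the CXCL5 and CXCR2 treatment, and the array files do not tell the origins apart. The young pool was made with females aged 3 to 6 weeks and the aging pool with females aged 43 to 53 weeks, both without treatment. The suppressed aging pool was also made with females aged 43 to 53 weeks, and its medium held 10 μg/ml of an antibody that neutralizes the chemokine CXCL5 and 10 nM of an antagonist of its receptor CXCR2, given together, so the effects of the antibody and of the antagonist cannot be told apart. No aging embryos with a control antibody and no young embryos with the treatment were analysed here. Each condition was 1 pool of 30 blastocysts on 1 array, and the number of arrays limits the precision: no spread between embryos can be given, and no test was made.

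Glucose enters a cell through carriers of the SLC2A (GLUT) family, is trapped by hexokinase and is split by glycolysis into pyruvate. Pyruvate either becomes lactate, which leaves through the monocarboxylate carriers, or enters mitochondria and feeds the TCA cycle through pyruvate dehydrogenase, which its kinases switch off. Early cleavage embryos live mainly on pyruvate and lactate, and glucose uptake, glycolysis and lactate release climb as the blastocyst forms.

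A level below is the log2 intensity of a probe minus the 75th percentile of its array, so that 0 is that percentile, and a difference is one level minus another of the same probe on the log2 scale (1 is 2-fold). Array by array, in the order young, aging and suppressed aging, that percentile was an intensity of 145, 155 and 122. Where a gene had several probes, the probe with the highest mean level stands for it, and other probes are given where they bear on a statement. Levels of different probes are not set against each other. A probe that was not well above background on 1 of the arrays compared gives a bound, written as at least. Probes printed in 10 spots had a median SD of 0.05 between spots on each array, which gives a difference a reading error of 0.07. This error covers printing and scanning only, and not embryos, pools or amplification. In these pools, fewer cells of a kind and less RNA per cell cannot be told apart. The blastocyst label was borne out by its markers: 8 of 8 trophectoderm genes and 8 of 8 inner cell mass genes were above background on all 3 arrays.

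Sequence upstream of the members was looked at first, since many glycolytic genes are known targets of hypoxia-inducible factor, which binds sites with the core ACGTG. The letters ACGTG, on either strand, were searched in the 250 bases before the start of each gene in RefSeq's annotation (GRCm38.p6). The palindrome CACGTG holds the core on both strands and counts as 2 matches there. Of 32851 such windows of all genes, 5444 (16.6%) held the core. Of the 49 members, 45 had a window, 66 windows in all, and 25 windows (37.9%) of 18 members held it. These windows overlap where a gene has several starts. Counted by gene, 4998 of 27025 genes (18.5%) held it in a window. The palindrome was in 6.02% of all windows and in 8 of the 66. A match is a run of letters and not a measured binding site.

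The windows of 4 promoters are shown, each 5′ to 3′ on the strand of its gene, with every match in capitals. They belong to the 3 genes of the step from pyruvate kinase to lactate export that lay over 2-fold apart in a comparison, and to Suclg1, which had the widest gap between the aging and suppressed aging arrays among the brightest probes of the members.
Ldha, chr7:46845554-46845803, plus strand, 5 matches in 3 stretches: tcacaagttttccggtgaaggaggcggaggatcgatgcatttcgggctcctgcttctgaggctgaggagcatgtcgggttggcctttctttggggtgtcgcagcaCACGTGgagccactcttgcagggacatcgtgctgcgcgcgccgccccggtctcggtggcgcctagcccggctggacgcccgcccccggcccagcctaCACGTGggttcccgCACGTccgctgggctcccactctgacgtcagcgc
Pkm, chr9:59656977-59657226, plus strand, 1 match: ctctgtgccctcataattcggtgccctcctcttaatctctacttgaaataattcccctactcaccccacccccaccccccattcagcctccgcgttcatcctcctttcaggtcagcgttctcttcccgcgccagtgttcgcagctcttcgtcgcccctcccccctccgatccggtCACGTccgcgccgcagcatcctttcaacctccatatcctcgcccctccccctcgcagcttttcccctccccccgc
Slc16a3, chr11:120948817-120949066, plus strand, 2 matches: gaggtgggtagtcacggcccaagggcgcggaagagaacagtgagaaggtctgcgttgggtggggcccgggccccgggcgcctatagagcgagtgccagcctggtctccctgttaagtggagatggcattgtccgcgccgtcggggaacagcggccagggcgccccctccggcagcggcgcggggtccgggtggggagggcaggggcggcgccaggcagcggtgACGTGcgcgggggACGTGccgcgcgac
Suclg1, chr6:73248255-73248504, plus strand, no match: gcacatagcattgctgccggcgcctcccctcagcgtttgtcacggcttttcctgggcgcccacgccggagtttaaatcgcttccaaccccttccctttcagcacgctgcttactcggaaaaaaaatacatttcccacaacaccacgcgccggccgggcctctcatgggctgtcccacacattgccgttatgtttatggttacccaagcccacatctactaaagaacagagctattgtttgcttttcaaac
Ldha and Pkm each have 1 further window, and neither holds the core. The Ldha window thus has the densest run of matches among the 4, and the Suclg1 window has none. These 4 were picked by their measured differences, and whether the core goes with a difference was not tested. Of other members over 2-fold apart in a comparison, Pfkp has no match, Pdk3 has 1, and Pfkm has matches in some of its 4 windows.

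Nearly the whole route was transcribed in all 3 pools. Of the 49 members, 46 (93.9%) were above background on all 3 arrays, against 58.9% of all named genes. The liver and beta-cell glucose carrier Slc2a2 and pyruvate carboxylase (Pc), which refills the TCA cycle with oxaloacetate, were not well above background on any array, so no difference is given for either. Pyruvate dehydrogenase kinase 3 (Pdk3) was below background on the young array only. The mean level over the arrays lay above 0 for 36 members. The 13 others were Slc2a2, Slc2a4, Slc2a8, Pfkm, Pfkp, Aldoc, Eno2, Ldhb, Slc16a3, Pdk1, Pdk2, Pdk3 and Pc, many of them isoenzymes best known from muscle, liver or brain.

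Most members differed little between any pair of arrays. Of the 47 members with a difference from young to aging blastocysts, 24 were higher and 23 lower in the aging pool, and the median difference was 0.01, against 0.03 over all named genes. Over 2-fold lay 2 members that were higher and 1 that was lower, 6.38% of the 47, whereas 19% of 16164 named genes lay over 2-fold apart (9.86% higher, 9.19% lower). The median size of a difference, whatever its sign, was 0.27 in the members and 0.44 in all named genes. Between suppressed aging and aging blastocysts, 27 members were higher and 20 lower, and the median difference was 0.03. Here 4 members (8.51%) lay over 2-fold apart, 3 higher and 1 lower, against 17.3% of named genes (8.77% higher, 8.5% lower). Between suppressed aging and young blastocysts, 30 members were higher and 17 lower, and the median difference was 0.13, against 0.03 over all named genes. Over 2-fold apart lay 6 members (12.8%), 5 higher and 1 lower, against 16.3% of named genes (8.67% higher, 7.64% lower). The lower share in the members depended on the background correction. After normexp correction, 4.26%, 4.26% and 6.38% of the 47 members lay over 2-fold apart in the 3 comparisons, against 5.30%, 4.74% and 4.61% of named genes. At its brightest probe, no member lay over 5-fold apart in any of these comparisons, in which 2.59%, 2.29% and 2.43% of named genes did. Named genes with a mean level above 0 lay over 2-fold apart at lower shares, so the members were also set against these. Among members with a mean level above 0, 1, 2 and 2 of 36 lay over 2-fold apart in the 3 comparisons, where 9.48%, 7.64% and 8.49% of named genes of that brightness did. The comparisons share arrays, so their counts are not independent of each other.

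**Figure D1:**
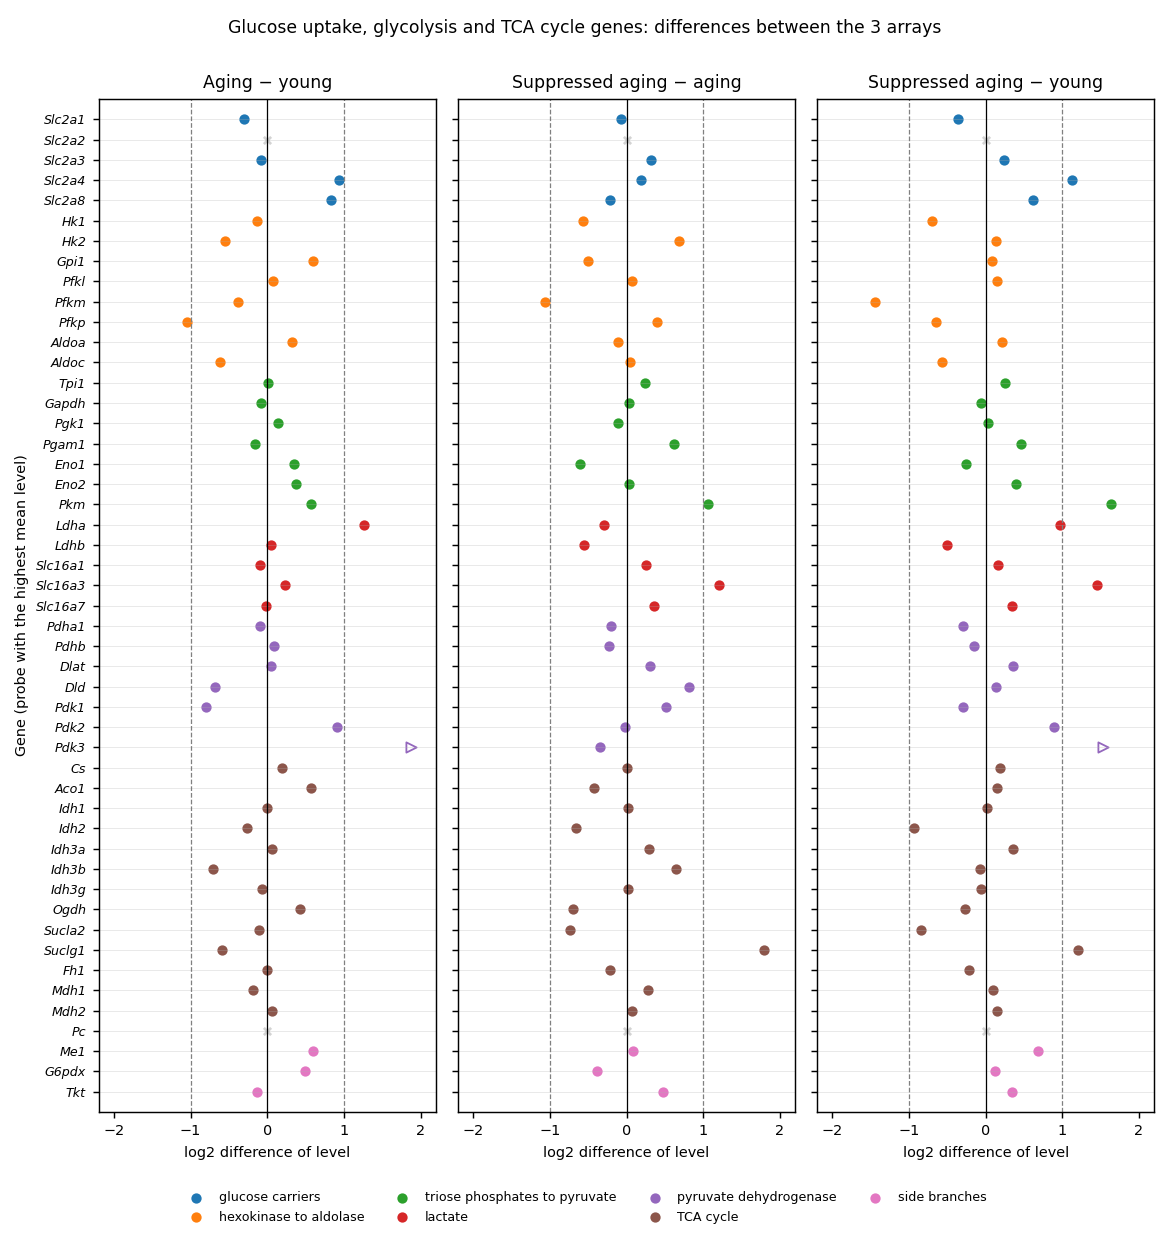
Difference of level between arrays (log2, horizontal axis) for each of the 49 members (vertical axis, ordered by step and coloured by it), in 3 panels for the 3 comparisons, with 1 array per condition and no error bars. Dashed lines mark 2-fold, open triangles mark bounds and grey crosses mark members below background on both arrays; 3, 4 and 6 members lie beyond the dashed lines.

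Among the glucose carriers, Slc2a4 and Slc2a8 differed more from the young array than Slc2a1 and Slc2a3 did at their brightest probes. The level of Slc2a1 (GLUT1), the common carrier of most cells, was 3.60 in young, 3.30 in aging and 3.24 in suppressed aging blastocysts. That of Slc2a3 (GLUT3), the high-affinity carrier of the trophectoderm, was 5.57, 5.49 and 5.82. The differences of both carriers lay between -0.37 and 0.32, and a second Slc2a3 probe, at 2.99, 3.42 and 3.13, differed from the first in direction. Slc2a4 (GLUT4), the insulin-responsive carrier of muscle and fat, had a level of -1.69 in young, -0.75 in aging and -0.57 in suppressed aging blastocysts. It was higher by 0.94 in aging and by 1.12 (2.18-fold) in suppressed aging than in young blastocysts. Slc2a8 (GLUT8), an intracellular carrier that has been tied to insulin-stimulated uptake in the blastocyst, had levels of -1.47, -0.64 and -0.85, and lay 0.83 higher in aging than in young blastocysts. Slc2a4 and Slc2a8 each had 1 probe, and both were higher on the 2 arrays of aging females than on the young array.

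In the first steps of glycolysis, isoenzymes of the same reaction had their lowest levels on different arrays. Hexokinase 1 (Hk1), which traps glucose as its phosphate in most tissues, had levels of 2.51, 2.38 and 1.82, lowest in suppressed aging blastocysts. Hexokinase 2 (Hk2), the inducible form, had levels of 4.32, 3.77 and 4.45, lowest in aging blastocysts. Glucose-6-phosphate isomerase (Gpi1) was highest in aging blastocysts at its brightest probe, with 4.66, 5.25 and 4.74. A second Gpi1 probe gave nearly the same differences, 0.48 between aging and young and -0.53 between suppressed aging and aging, but the third gave -0.27 and 0.43.

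Phosphofructokinase catalyses the committed step of glycolysis and has a liver, a muscle and a platelet form. The liver form Pfkl stayed at 2.69, 2.76 and 2.83. The platelet form Pfkp had a level of -0.46 in young, -1.52 in aging and -1.12 in suppressed aging blastocysts, a difference of -1.05 (2.08-fold lower) from young to aging. Its second probe gave the same order with a wider gap, at 0.23, -1.99 and -1.52, a difference of -2.22. The muscle form Pfkm had levels of -0.01, -0.39 and -1.45, so that suppressed aging blastocysts differed by -1.06 (2.09-fold lower) from aging and by -1.44 (2.72-fold lower) from young blastocysts. The Pfkm value rests on 1 probe. One form was therefore flat on the 3 arrays, 1 was lowest in aging and 1 was lowest in suppressed aging blastocysts.

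Aldolase splits the 6-carbon sugar into triose phosphates. Aldoa, the form of most tissues, had levels of 8.63, 8.95 and 8.84. The brain form Aldoc was dim, at -2.41, -3.02 and -2.98, and the SD between its 10 spots was 0.16, 0.36 and 0.22, wider than at a typical probe. Its second probe, also printed in 10 spots, was not well above background in aging blastocysts and was at least 4.85-fold lower there than in young blastocysts. Both probes had their highest level in young blastocysts.

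From the triose phosphates to pyruvate, the 7 members had a median difference of 0.13 between aging and young, and 0.03 between suppressed aging and aging blastocysts. Glyceraldehyde-3-phosphate dehydrogenase (Gapdh) had 6 probes, of which the brightest stayed at 7.26, 7.18 and 7.21. All 6 were lower in aging than in young blastocysts, with differences of -0.08 to -0.65, and all 6 were higher in suppressed aging than in aging blastocysts, by 0.03 to 0.50. The brightest Gapdh probe, with the smallest of these differences, turned lower from aging to suppressed aging under quantile normalization (-0.091), with the authors' values (-0.064) and after normexp background correction (-0.28). Triose-phosphate isomerase (Tpi1) had differences between -0.27 and 0.25 at its 3 probes, and phosphoglycerate kinase 1 (Pgk1), the first step to yield ATP, stayed at 4.39, 4.53 and 4.42. Phosphoglycerate mutase 1 (Pgam1) had levels of 6.00, 5.84 and 6.46, and was 0.62 higher in suppressed aging than in aging blastocysts at a probe whose 10 spots had an SD of 0.05 to 0.06. The second Pgam1 probe gave 0.69. Enolase 1 (Eno1) had its highest level in aging blastocysts, 4.60 against 4.25 in young blastocysts, and its lowest in suppressed aging blastocysts, a difference of -0.61 from aging to suppressed aging, with -0.60 at its second probe. The Pgam1 and Eno1 steps follow each other in the pathway, and in that comparison they differed in opposite directions at both probes of each. The neuronal enolase Eno2 had levels of -1.02, -0.65 and -0.62.

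Pyruvate kinase (Pkm) closes glycolysis and yields ATP and pyruvate. Its brightest probe had a level of 5.51 in young, 6.08 in aging and 7.14 in suppressed aging blastocysts. It was higher in suppressed aging blastocysts by 1.07 (2.09-fold) than in aging and by 1.63 (3.09-fold) than in young blastocysts. The second probe stayed at 2.68, 2.89 and 2.89, with differences of -0.0048 and 0.21. From aging to suppressed aging, the brightest probe was just under 2-fold higher after quantile normalization (0.94) and with the authors' values (0.98). The gene makes the alternatively spliced forms PKM1 and PKM2, and the files used here do not say which form either probe reads. Gapdh, Pgk1, Pkm, Ldha, Aldoa and Eno1 have many processed pseudogenes in the mouse genome. Probe sequences were not analysed here, so signal from such copies cannot be told apart from signal of the genes.

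The lactate branch gave 2 of the members over 2-fold apart. Lactate dehydrogenase A (Ldha), which turns pyruvate into lactate, had a level of 2.55 in young, 3.81 in aging and 3.51 in suppressed aging blastocysts, and was 1.26 (2.40-fold) higher in aging than in young blastocysts. A second Ldha probe went the other way, with -1.98, -2.39 and -1.82 and a difference of -0.41. The direction for Ldha thus depends on the probe. Lactate dehydrogenase B (Ldhb), the form that favours pyruvate, had levels of -0.15, -0.10 and -0.66. The low-affinity lactate exporter Slc16a3 (MCT4) was dim, with -3.37 in young, -3.13 in aging and -1.92 in suppressed aging blastocysts, and was higher in the suppressed aging blastocysts by 1.21 (2.32-fold) than in aging and by 1.45 (2.73-fold) than in young blastocysts. The carriers Slc16a1 (MCT1; 2.98, 2.89 and 3.14) and Slc16a7 (MCT2; 0.98, 0.97 and 1.32) were also highest in suppressed aging blastocysts, by 0.16 and 0.34 over the young array. A second Slc16a7 probe was above background in suppressed aging blastocysts only. All 3 lactate carriers hence had their highest level in the suppressed aging pool, as did the first probe of Pkm.

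**Figure D2:**
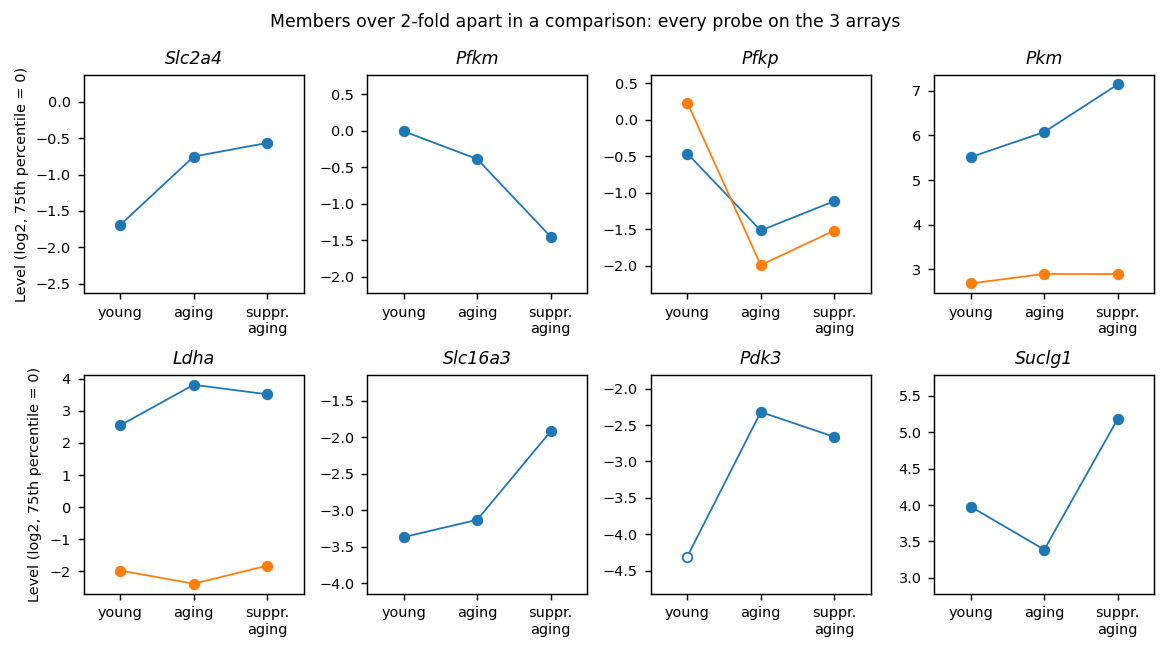
Level (log2, 0 is the array's 75th percentile, vertical axis) in young, aging and suppressed aging blastocysts (horizontal axis) for the 8 members over 2-fold apart in a comparison. Each line is 1 probe (blue, the brightest; orange, the second) with 1 array per point, and the open circle is below background; the 2 probes of Pfkp run together, while those of Pkm and Ldha do not.

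At the entry into the TCA cycle, the kinases Pdk2 and Pdk3 were higher in aging than in young blastocysts, and the brightest Pdk1 probe was lower. Of the subunits of the enzyme they control, Dld was lower, Pdha1 and Pdhb stayed close, and Dlat was higher by 0.05 or 0.69, depending on the probe. The subunits of the pyruvate dehydrogenase core differed little on the 3 arrays, with 2.95, 2.86 and 2.65 for Pdha1 and 3.38, 3.47 and 3.23 for Pdhb. The acetyl transferase Dlat had levels of 0.13, 0.17 and 0.48 at its brightest probe, but its second probe gave -0.58, 0.11 and -0.55. The dihydrolipoamide dehydrogenase Dld, which pyruvate dehydrogenase shares with other complexes, had levels of 0.22, -0.46 and 0.35, lowest in aging blastocysts, with -0.68 from young to aging and 0.81 from aging to suppressed aging. Pdhx, which binds this subunit to the complex and is not a member, had the same order at its 1 probe, with levels of -0.76, -1.67 and -0.19, a difference of -0.92 from young to aging and of 1.48 from aging to suppressed aging.

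The kinases that inactivate pyruvate dehydrogenase split. Pdk1 had levels of -0.51, -1.31 and -0.80 at its brightest probe, lowest in aging blastocysts. Its second probe was -1.54 and -1.68 in young and aging blastocysts and not well above background in suppressed aging blastocysts, at least 4.78-fold lower there than in aging blastocysts. The first probe was 0.51 higher there. Pdk2 had levels of -1.71, -0.80 and -0.82, and lay 0.91 higher in aging and 0.88 higher in suppressed aging than in young blastocysts. Pdk3 was below background in young blastocysts and had levels of -2.32 and -2.66 in the other pools. It was at least 3.67-fold higher in aging and at least 2.90-fold higher in suppressed aging than in young blastocysts. Pdk2 and Pdk3 were thus higher in both pools of aging females, while the brightest Pdk1 probe was lower in both.

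The TCA cycle itself differed little from young to aging blastocysts, with a median difference of -0.01 over its 13 members and no member over 2-fold apart. Citrate synthase (Cs), the entry of acetyl-CoA, had levels of 3.68, 3.87 and 3.87 at its brightest probe, but its second probe, at 3.72, 3.90 and 3.37, differed by -0.52 from aging to suppressed aging. Cytosolic aconitase (Aco1), which also controls iron-dependent mRNAs, had levels of 2.99, 3.56 and 3.14, and both its probes were higher in aging than in young blastocysts, by 0.57 and 0.54. Among the NADP-linked isocitrate dehydrogenases, the cytosolic Idh1 stayed at 2.74, 2.74 and 2.76 at its brightest probe and at 1.17, 0.99 and 0.97 at its second. The mitochondrial Idh2 had levels of 4.42, 4.16 and 3.49, with differences from young to suppressed aging of -0.93 at its first probe and -0.58 at its second. The 3 subunits of the NAD-linked enzyme, the form that drives the cycle, did not run together at their brightest probes. Idh3b was lowest in aging blastocysts (4.04, 3.33 and 3.97), Idh3a was highest in suppressed aging blastocysts (3.48, 3.54 and 3.83), and Idh3g stayed at 6.68, 6.61 and 6.62. The second Idh3g probe, at 5.07, 5.17 and 5.66, was highest in suppressed aging blastocysts, as Idh3a was.

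Oxoglutarate dehydrogenase (Ogdh), the next oxidative step, was highest in aging blastocysts at both probes, with levels of 5.61, 6.04 and 5.34 at the first and 4.44, 4.78 and 4.43 at the second. The following step, succinyl-CoA ligase, gave the widest difference between suppressed aging and aging blastocysts among the brightest probes of the members. Its shared alpha subunit Suclg1 had a level of 3.98 in young, 3.39 in aging and 5.18 in suppressed aging blastocysts, higher in suppressed aging blastocysts by 1.79 (3.47-fold) than in aging and by 1.20 (2.31-fold) than in young blastocysts. The ATP-forming beta subunit Sucla2 had levels of 0.69, 0.58 and -0.15, lowest in suppressed aging blastocysts, with differences of -0.73 from aging and -0.84 from young blastocysts. Suclg1 and Sucla2 have 1 probe each, so neither value could be compared with another probe. The GTP-forming beta subunit Suclg2, which is not a member, had levels of 3.17, 2.91 and 3.25 at its brightest probe, and its 3 probes differed by 0.34, -0.41 and 0.93 from aging to suppressed aging. The direction for Suclg2 thus depends on the probe, no probe of Sucla2 or Suclg2 differed as much as Suclg1 in that comparison, and Sucla2 differed the other way.

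Fumarase (Fh1) had levels of 1.66, 1.65 and 1.44. The malate dehydrogenases, cytosolic Mdh1 (4.52, 4.34 and 4.62) and mitochondrial Mdh2 (6.76, 6.83 and 6.90), differed by 0.27 at most at their brightest probes, and a second Mdh1 probe was 0.42 higher in suppressed aging than in aging blastocysts. Of the side branches, malic enzyme 1 (Me1), a source of NADPH, had levels of 2.15, 2.74 and 2.82, and was higher in aging than in young blastocysts by 0.60 at its first probe and 0.29 at its second. Glucose-6-phosphate dehydrogenase (G6pdx), the gate to the pentose phosphate pathway, had levels of 2.51, 3.00 and 2.62. Transketolase (Tkt), which returns pentoses to glycolysis, had levels of 4.22, 4.08 and 4.56. Me1 and G6pdx were lowest in young and Tkt in aging blastocysts, and none of the 3 lay over 2-fold apart.

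**Figure D3:**
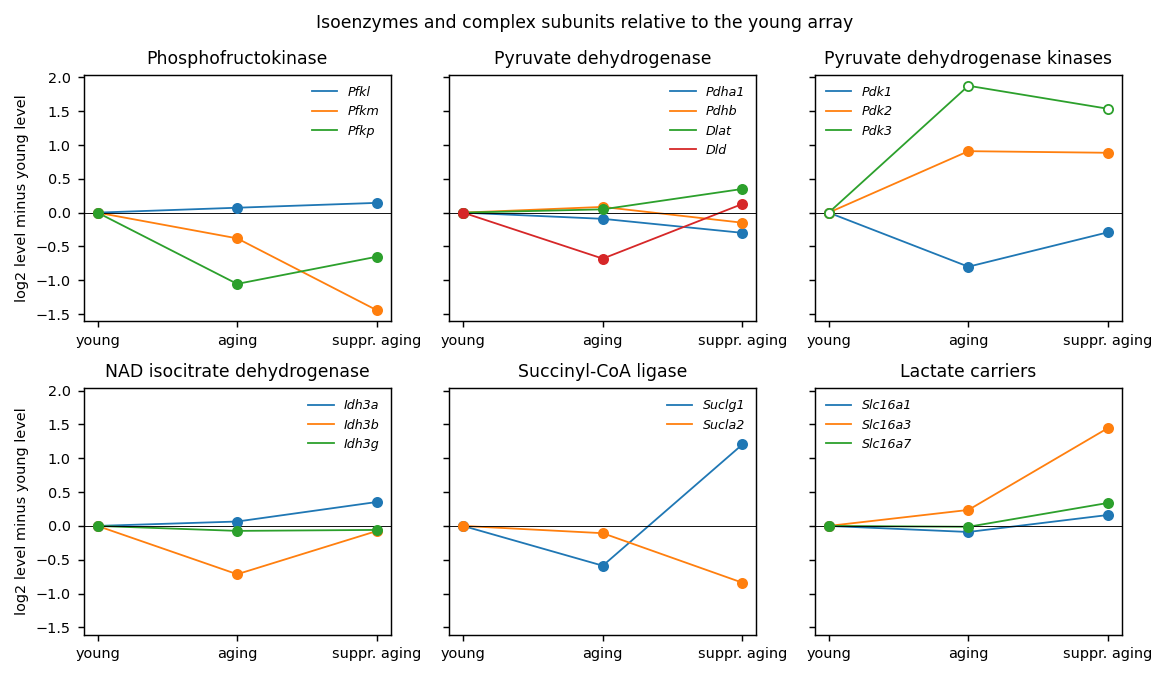
Level minus the level in young blastocysts (log2, vertical axis) on the 3 arrays (horizontal axis), 1 line per gene at its brightest probe, for 6 groups of isoenzymes or subunits, with no error bars because each condition was 1 array. Open circles rest on the young array's detection limit for Pdk3; Suclg1 and Sucla2 end on opposite sides of 0, at 1.20 and -0.84.

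Apart from the probes printed in 10 spots, genes read by more than 1 probe gave the only repeat measurement within these arrays. Over the members with 2 probes above background on both arrays, the first and second brightest probes pointed the same way in 15 of 19 between aging and young, where 56.7% of all such named genes did. The counts were 12 of 18 between suppressed aging and aging, against 54.9%, and 13 of 19 between suppressed aging and young, against 56%. The median gap between the differences of the first and second probe was 0.18, 0.26 and 0.33 in the members and 0.55, 0.53 and 0.48 in all such genes. These gaps are several times the reading error of 0.07. In these counts and gaps, the members were not matched with the other genes for brightness, and 36 of the 49 members had a mean level above 0. The differences given above for Pfkp, Gpi1 (2 of 3 probes), Pgam1, Eno1, Ogdh, Idh2 and Aco1 (from young to aging) had the same direction at a pair of probes. Among those that differed in direction or in size between probes in a comparison were Ldha, Pkm, Pdk1, Dlat, Slc2a3, Cs, Idh3g and Tpi1. The 2 probes of Pfkp also differed in size (-1.05 and -2.22 from young to aging). The differences at Slc2a4, Pfkm, Slc16a3, Pdk3 and Suclg1 had no second probe to compare with. Suclg1 lay over 2-fold apart under 9 of 9 alternative ways of processing and Pfkp under 10 of 10. The brightest probe was chosen anew under each alternative, so the Pfkp values need not all come from the same probe. The dim members over 2-fold apart that had 1 probe depended on the background correction. With normexp correction, Slc2a4 was 0.71 higher in suppressed aging than in young blastocysts, and Pdk3 was 0.33 higher in aging than in young blastocysts. From aging to suppressed aging, Slc16a3 was 0.37 higher and Pfkm differed by -0.39. All of these values were under 2-fold.

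**Figure D4:**
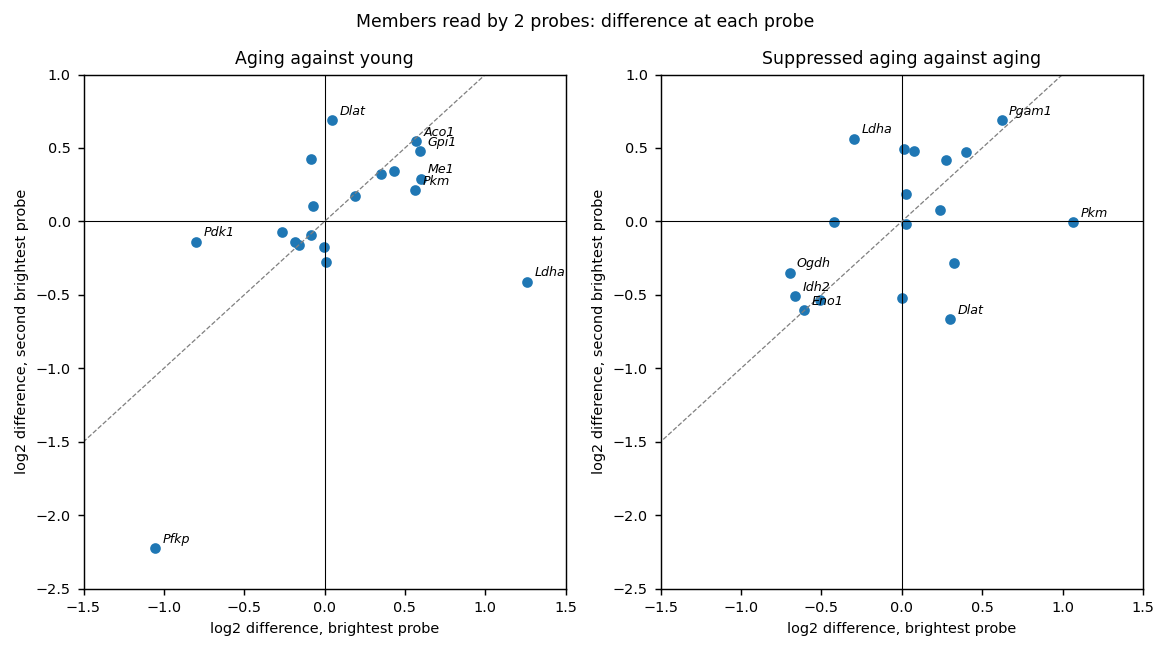
Difference between arrays (log2) at the brightest probe (horizontal axis) and at the second brightest probe (vertical axis) of each member with 2 probes above background, for aging against young (19 members) and suppressed aging against aging (18 members). The dashed line marks equal differences and each point is 1 gene with 1 array per condition; Ldha (left) and Pkm (right) lie far from the line, Pfkp lies below it with both differences negative, and Pgam1 and Eno1 (right) lie close to it.

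Beyond the members, 75 further genes of these pathways were listed, of which 66, 63 and 65 could be compared. From young to aging blastocysts, 31 were higher and 35 lower with a median difference of -0.05, and 11 (16.7%) lay over 2-fold apart, 5 higher and 6 lower, close to the 19% of all named genes. Between suppressed aging and aging blastocysts, 34 were higher and 29 lower in the suppressed pool, and 11 (17.5%) lay over 2-fold apart, 4 higher and 7 lower, close to the 17.3% of all named genes. The count was 7 (10.8%) between suppressed aging and young blastocysts, 2 higher and 5 lower, against 16.3% of named genes. The bifunctional enzymes that set fructose-2,6-bisphosphate, the main activator of phosphofructokinase, were among the widest. Pfkfb3 had levels of -1.62, 0.10 and -1.64, and Pfkfb4 had -2.91, -0.62 and -2.71, both highest in aging blastocysts. A second Pfkfb3 probe was above background in aging blastocysts only, and a second Pfkfb4 probe on no array. Pfkfb1 had levels of -1.64, -1.13 and -3.51, lowest in suppressed aging blastocysts, with differences of -2.38 from aging and -1.87 from young blastocysts. Its second probe had levels of -3.73 and -3.05 in young and aging blastocysts and was below background in suppressed aging blastocysts. The 3 probes of Pfkfb2 went different ways between aging and young blastocysts, with -0.81, 0.90 and -1.07. Muscle glycogen phosphorylase (Pygm) had levels of -2.53, -0.29 and -2.38, but its second probe was as high in suppressed aging as in aging blastocysts (-3.73, -2.83 and -2.77). ATP citrate lyase (Acly), which returns citrate to cytosolic acetyl-CoA, had levels of 3.66, 0.89 and 2.01 at its brightest probe and 1.33, 1.20 and 0.85 at its second. Also over 2-fold higher in aging than in young blastocysts were H6pd (at least 6.13-fold) and Slc2a12 (2.77-fold). Gpd1 (at least 4.55-fold), Pygb (2.79-fold), Ogdhl (2.51-fold) and Pdp1 (2.06-fold) were lower there. A second Pdp1 probe was above background in aging blastocysts only.

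The succinate dehydrogenase subunits Sdha, Sdhb, Sdhc and Sdhd, the step between succinyl-CoA ligase and fumarase, had differences between -0.66 and 0.47 in all comparisons at their brightest probes. The brightest Sdha probe differed by 0.27 from young to aging and by -0.29 from aging to suppressed aging, and its second probe went the other way, by -0.62 and 0.68. The mitochondrial pyruvate carrier has the subunits Mpc1, with levels of 1.29, 2.22 and 1.31 at its brightest probe, and Mpc2, with 2.08, 2.06 and 2.33. The second Mpc1 probe, at 0.04, 0.46 and 0.83, was 0.37 higher in suppressed aging than in aging blastocysts, where the first differed by -0.91. Of the sperm and testis forms of glycolytic enzymes, Pgk2 was below background on all 3 arrays. At its brightest probe, Ldhc was dim at -3.15 and -2.16 in young and aging and below background in suppressed aging blastocysts. Its other probes were below background on all 3 arrays. Gapdhs went the other way, with -2.70 in young and -4.06 in aging (2.57-fold lower), and was below background in suppressed aging blastocysts.

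Markers of other cells moved between the same arrays. The inner cell mass list, with 8 of 8 genes above background on each array, had a mean level of 2.69 in young, 3.34 in aging and 3.01 in suppressed aging blastocysts. The trophectoderm list had mean levels of 4.41, 4.20 and 4.34. Of 8 oocyte genes, 5, 6 and 4 were above background on the 3 arrays, and the mean level of the list was -3.07, -1.89 and -3.08, with Mos and Oosp1 below background on all. Of 10 cumulus and granulosa cell genes, 4 were above background on each array. These were Foxl2, which was bright (8.66, 8.54 and 8.77), Cyp19a1 (-1.18, -1.31 and -1.01), Star (-2.89, -2.92 and -2.51) and Amh (-3.33, -3.79 and -3.68). The others, among them Fshr and Cyp11a1, were above background on none, and the list had a mean level of -3.55, -3.49 and -3.35. Of 5 blood genes with a probe, 2, 3 and 1 were above background, and the mean level of the list was -4.37, -3.64 and -5.11. Of its haemoglobin genes, Hbb-b1 was above background in aging blastocysts only, at least 3.57-fold higher there than in young blastocysts. Hba-a1 was above background on all 3 arrays (-0.36, 0.55 and -1.14), and Hbb-bt on none. The blood gene Alas2 went the other way, with -2.76 in young and -3.53 in aging blastocysts, and was below background in suppressed aging blastocysts. Of 4 sperm genes, 3 were above background on each array. The inner cell mass, oocyte and blood lists thus had their highest mean level in aging blastocysts, but these means include probes below background. From young to aging, 7 inner cell mass genes were higher and 1, Sox17, was 2.88-fold lower. Of the oocyte genes with a difference, 4 were higher, H1foo by 0.01 only, and 2 were lower, Gdf9 (-0.06) and Nlrp5 (-0.30). Of such blood genes, 2 were higher and 1 was lower. The part of these cell types in the differences of the members was not tested.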

How the data were processed

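Agilent 1-colour (Cy3) arrays of 3 pools of blastocysts were read, all on 1 slide in 1 scan. The deposited scanner files hold spot intensity as Feature Extraction 12.0.3.1 gave it to the authors, with the background subtracted and spatial trends removed, and without normalization between arrays. Their table of processed values, deposited as intensity too, was the same signal times 1 factor per array (3.46, 3.34 and 3.96). Per the methods the RNA was amplified by global PCR with 1 primer. Per the labels, cRNA was labelled with a kit for total RNA, and the files cannot tell which holds. Such amplification can shift probes of 1 gene unequally.

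From the deposited intensity, log2 values were computed here without control spots and outlier spots (100, 85 and 118), averaged per probe and centred on the 75th percentile of each array. No spot was saturated. Probes were called above background by the scanner software's flag (33060, 33209 and 31892 of 56591 probes). Detection limits were log2 levels of -4.20, -4.32 and -3.93, and a bound takes the higher of the limit and the dim probe's own value. Gene names came through RefSeq accessions (GRCm38.p6), with 1 member (Pc) found under its other symbol Pcx. The array was designed on an older build, so probes have no coordinates here.

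The members and lists were chosen with earlier results of these data known. Full values are given for members over 2-fold apart or with probes that differ, and the others by range and count with an example per step. With 1 array per condition no P-value was computed. The 2-fold limit is a description. The procedure was tested on simulated data with planted changes and noise about as small as that between spots. This checks the computation only, and not the spread between embryos, pools or amplifications. Python 3.11.15, NumPy 2.4.6, pandas 2.3.3, Matplotlib 3.10.9, R 4.3.3 and limma 3.58.1 were used. Alternatives were normexp correction (offset 50), quantile normalization, other centrings, the authors' values, other probes of a gene, other filters, outlier spots kept and a 1.5-fold limit.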

Additional observations from a re-analysis of the deposited data

How the results depend on the processing

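No paired analysis was possible because there was 1 array for each condition. Of 93 summary values under the alternatives, 79 stayed within the limits set for a same value, as did 984 of 1328 values of single members. Among members over 2-fold apart, 2 of the 1328 values changed sign, both with the second brightest probe. Ldha between aging and young was -0.41. Pkm between suppressed aging and aging was -0.0048, which lies within the reading error of 0.07, so that probe showed no difference. The cause was not tested. Smaller differences were not judged for reversal, and 70 further values of members, each under 2-fold, changed sign under an alternative. The median of the members between aging and young was -0.082 when centred on 6 housekeeping genes. Between suppressed aging and aging it was -0.056 after quantile normalization and -0.064 with the authors' values. Between suppressed aging and young it was 0.053 after normexp correction, 0.055 with the housekeeping genes and 0.023 with second probes. At a limit of 1.5-fold, 13, 12 and 14 members (27.7%, 25.5% and 29.8%) were apart in the 3 comparisons, against 38.6%, 35.8% and 34.3% of named genes. Normexp correction adds an offset and shrinks the differences of dim probes. After it, 2 members (4.26%) were over 2-fold apart from aging to suppressed aging and 3 (6.38%) from young to suppressed aging. Of named genes, 4.74% and 4.61% were. Pdk3, Pfkm, Slc16a3 and Slc2a4 were not among these members. With second probes, available for 21 members, the counts of members were 1 and 3 (4.76% and 14.3%, against 20.8% and 18.6% of named genes). Here 1 member lay over 5-fold apart between suppressed aging and young. Suclg1 stayed between 1.70 and 1.80 from aging to suppressed aging under every alternative that could be run. Pfkp stayed over 2-fold lower from young to aging, but its probe was chosen anew under each alternative and need not be the same. Among all named genes, the split over 2-fold between suppressed aging and aging was 1392 higher and 1349 lower, and 1107 and 1433 with the authors' values. Between suppressed aging and young it was 1382 and 1217, and 1204 and 1382 with the housekeeping genes. With 1 array per condition, leaving out an array was not possible.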
